A study of Mus musculus with 24 samples.

Results

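The 75 genes described here encode subunits of the oxidative phosphorylation complexes from the nuclear genome. They were found by symbol alone: Nduf followed by a, b, c, s or v and a number, symbols starting with Cox4 to Cox8, Uqcr or Atp5, and Sdha, Sdhb, Sdhc, Sdhd, Cyc1 and Usmg5. The rule returned 75 of the 9420 genes in the expression table, and no measured value was used to choose them. Complex I contributed 34 members, complex II 4, complex III 9, complex IV 12 and complex V (ATP synthase) 16. Ndufa4 and Cox7a2l were counted with complex IV. A further 23 annotated symbols that match the rule, among them Cox7c, Atp5l and Ndufb4, were not analysed here.

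The study restimulated mouse Th1 effector cells, which are CD4+ T cells, here from DO11.10 mice, through their antigen receptor. Cells received soluble anti-CD3 at 1 μg/ml and anti-CD28 at 2.5 μg/ml over a plate coated with goat antibody to hamster immunoglobulin, and the 0 h cells are the starting point of the series. Newly made RNA was marked with 4-thiouridine (4sU), a uridine analogue that cells build into RNA as they transcribe it, at 200 μM for 1 h, or at 500 μM for 0.5 h in a pair of short-label libraries. Total RNA and ribosome profiling, which sequences the mRNA stretches covered by ribosomes (footprints), complete the 24 libraries. 4sU RNA of the 1 h label was sampled at 0, 1, 2, 3 and 4 h, total RNA at 0, 1, 2 and 4 h, and footprints at 0, 0.5, 1, 2 and 4 h. In 4sU RNA the 0, 1 and 4 h points have 2 libraries and the 2 and 3 h points have 1. Total RNA has 2 libraries at 0 and 4 h and 1 at 1 and 2 h. Footprints have 2 libraries at 0, 1 and 4 h and 1 at 0.5 and 2 h. Nothing in the labels ties the replicates to separate mice or cultures, and the p-values therefore reflect library-to-library spread, which may be technical. All groups are of 1 strain and 1 cell type, and in bulk samples fewer cells of a type and less RNA per cell cannot be told apart.

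Oxidative phosphorylation couples the oxidation of NADH and succinate to ATP synthesis in the inner mitochondrial membrane. Complexes I and II pass electrons to ubiquinone, complex III passes them on to cytochrome c, and complex IV reduces oxygen. Complexes I, III and IV pump protons, and complex V uses the gradient to make ATP. Most subunits are encoded in the nucleus, translated on cytosolic ribosomes and imported, while a core set is encoded in mitochondrial DNA, and activated T cells are known to raise both glycolysis and mitochondrial respiration.

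Values were deposited as fragment counts scaled to gene length and library total (FPKM). Where the steps between low values could be resolved, they gave 8.89 to 26.2 M reads for the 8 footprint libraries, and 4.87 M reads for total RNA at 0 h, replicate 2. The other total RNA depths could not be resolved. The 9 T cell identity markers summed to 1066 to 1667 FPKM in total RNA. The 7 Th1 markers summed to 382 to 7641 FPKM in total RNA. One of them, Ifng, was 7580.33 FPKM in replicate 1 and 2368.26 in replicate 2 of 4sU RNA at 4 h. The 6 markers on the CD8 T cell list summed to 282 to 372 FPKM in the replicate 1 libraries of total RNA and to 29.5 to 46.1 FPKM in replicate 2, while Cd4 was 80.66 to 127.45 FPKM in all 6. On that list Gzma was 214.6 and 4.42 FPKM at 0 h in replicates 1 and 2. Eomes went the other way, at 6.62 and 13.83 FPKM at 4 h. Macrophage and dendritic markers (5 of 10 in the table) summed to 21.3 to 66.9 FPKM, B cell markers (5 of 6) to 2.44 to 14.8 FPKM and the 1 NK cell marker of 6 in the table to 50.9 to 174 FPKM. The part of these cells in the results below was not tested.

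At rest the subunit genes were expressed well above the typical gene of the table. In total RNA their median level at 0 h was 47.8 FPKM, against 8.06 FPKM over all 9420 genes, and 72 of the 75 lay above that median. In footprints the median was 234.4 FPKM against 21.3 FPKM, with 71 above. In 4sU RNA the gap was smaller, 20.7 against 12.5 FPKM, with 58 above. The 75 genes together made up 0.792% of summed 4sU FPKM, 2.03% of summed total RNA FPKM and 2.31% of summed footprint FPKM. FPKM in total and 4sU RNA was taken as per kilobase of summed exons and in footprints as per kilobase of coding sequence. This was inferred from the steps between low values, which were resolved in all footprint libraries but in few of the others. The levels of genes are therefore compared here only within a kind of library, and between kinds further below relative to the median gene.

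The order of the complexes differed between the kinds of library. In total RNA the median of complex IV was 121.6 FPKM, against 57.4 for complex V, 57.2 for complex III, 43.9 for complex II and 30.3 for complex I. The most abundant members in total RNA were Cox6b1, a subunit on the intermembrane face of cytochrome c oxidase, at 239 ± 26.9 FPKM (SD, n = 2), Atp5b, the catalytic β subunit of ATP synthase, at 225 ± 17.9 FPKM (SD, n = 2), and Cox8a at 208 ± 12.6 FPKM (SD, n = 2). Cox6b1 was 220.29 and 258.28 FPKM in the pair of libraries and Atp5b 212.11 and 237.4 FPKM, so their order is within the spread. The least abundant were Ndufb2 at 2.51 ± 0.318 FPKM, Cox7a1, the heart and muscle isoform of subunit VIIa, at 2.4 ± 1.37 FPKM, and Atp5g1 at 0.99 ± 0.226 FPKM (SD, n = 2 each). In 4sU RNA the highest were Atp5a1, the α subunit of ATP synthase, at 131 ± 9.48 FPKM, Atp5b at 94.1 ± 11.5 FPKM and Cox8a at 75.9 ± 0.0354 FPKM (SD, n = 2 each). Ndufb2, Atp5g1 and Cox7a1 were again the lowest, at 2.32, 1.86 and 0.635 FPKM. In footprints Atp5e, the ε subunit, led at 1591 ± 413 FPKM, before Atp5g3, one of 3 genes for the c-ring subunit, at 1446 ± 430 FPKM and Cox8a at 1115 ± 68.4 FPKM (SD, n = 2 each).

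**Figure D1:**
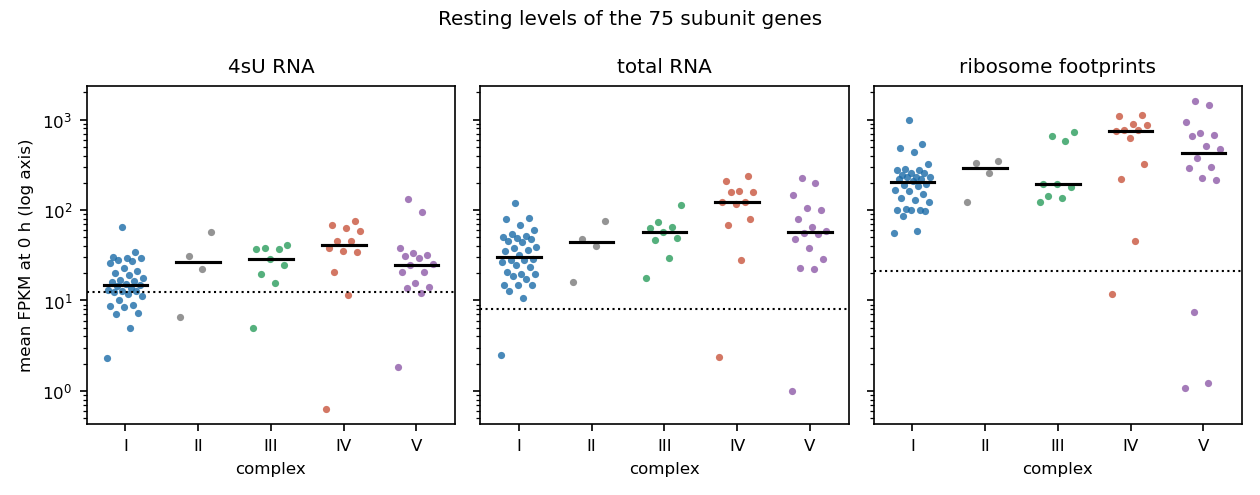
Mean FPKM at 0 h (log axis) of each subunit gene, by complex, in 4sU RNA, total RNA and footprints; each point is 1 gene, short black bars are medians of a complex and the dotted line is the median of all genes in the table. Points of complex IV have the highest median in each panel, and all but 3 members in total RNA lie above the dotted line.

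In newly made RNA at 4 h, 6 subunit genes rose and none fell in the fit without a replicate block. The 6 are Uqcrq and Cyc1 of complex III, Atp5b, Atp5d and Usmg5 of complex V, and Ndufa12 of complex I. Changes are differences of log2(FPKM + 1) from limma over all tested genes, called at a Benjamini-Hochberg adjusted p below 0.05. They are 6 of 74 members tested, while 33.3% of all 9278 genes tested were called, 14.4% higher and 18.9% lower. The members' count lies below that background, and the difference between the shares was not tested. Median-of-ratios scaling moves the split over all genes to 17.7% higher and 14.8% lower, shifts the median of all genes from -0.16 to -0.01, and calls 8 members, all higher.

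Uqcrq, a small subunit of complex III (chromosome 11, 53427922 to 53430831, GRCm38), was 4.65 and 5.19 FPKM at 0 h, 7.85 and 8.69 at 1 h, 9.05 at 2 h, 11.86 at 3 h, and 15.96 and 9.66 at 4 h. Both 4 h values lie above every 0 h and 1 h value, with a log2 change of 1.19 ± 0.25 (SE, adjusted p = 0.0162). Cyc1, cytochrome c1, which hands electrons to cytochrome c (chromosome 15, 76343523 to 76346260), was 30.79 and 26.51 FPKM at 0 h, 35.39 and 34.62 at 1 h, 51.75 at 2 h, 53.77 at 3 h, and 68.27 and 41.88 at 4 h, a change of 0.88 ± 0.26 (adjusted p = 0.0421). The groups at 0 and 4 h do not overlap.

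Atp5b (chromosome 10, 128083273 to 128090391) was 102.23 and 85.91 FPKM at 0 h, 117.82 and 96.85 at 1 h, 154.63 at 2 h, 183.87 at 3 h, and 205.73 and 156.9 at 4 h, a change of 0.93 ± 0.25 (adjusted p = 0.0331). Atp5d, the δ subunit in the central stalk of ATP synthase (chromosome 10, 80138632 to 80145818), was 17.37 and 14.02 FPKM at 0 h, 23.28 and 22.91 at 1 h, 37.54 at 2 h, 34.75 at 3 h, and 43.4 and 27.43 at 4 h, a change of 1.1 ± 0.25 (adjusted p = 0.0197). Every library after 0 h was higher than both 0 h libraries for Atp5d. Usmg5, a small membrane subunit also called DAPIT (chromosome 19, 47083464 to 47090647), was 28.45 and 34 FPKM at 0 h, 40.48 and 32.92 at 1 h, 53.63 at 2 h, 46.84 at 3 h, and 54.95 and 47.96 at 4 h, a change of 0.71 ± 0.19 (adjusted p = 0.0362). Its 1 h values overlap the 0 h values, and its 4 h values do not. Of its coding windows 99.3% also occur in another gene.

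Ndufa12, an accessory subunit of the arm of complex I that oxidises NADH (chromosome 10, 94198720 to 94221443), was 4.87 and 5.09 FPKM at 0 h, 4.37 and 5.32 at 1 h, 8.57 at 2 h, 12.49 at 3 h, and 15.36 and 9.24 at 4 h, a change of 1.11 ± 0.26 (adjusted p = 0.0211). Without the block it was also the only member called at 3 h against 0 h and at 4 h against 1 h. Of its coding windows 76.1% also occur in a processed pseudogene, so reads could be split between them. In all 6 genes the replicate 1 library at 4 h was the higher of the pair.

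**Figure D2:**
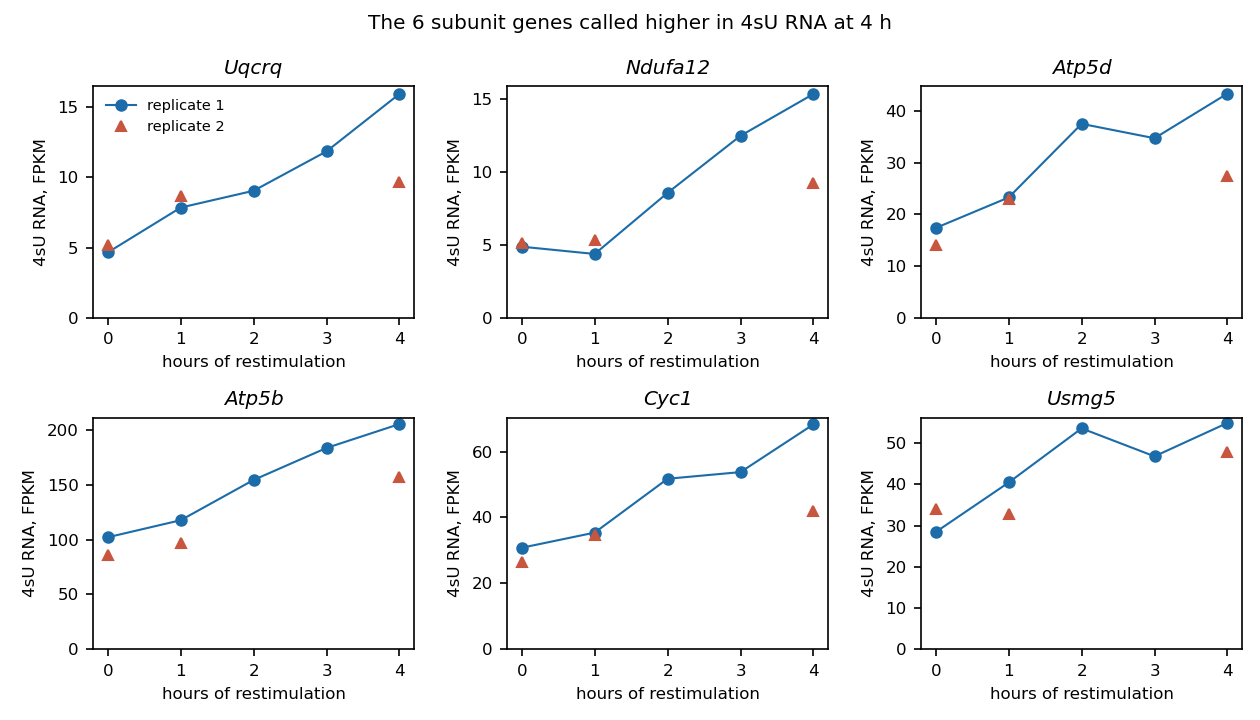
FPKM in 4sU RNA against hours of restimulation for the 6 genes called at 4 h; blue circles joined by a line are replicate 1 and red triangles are replicate 2, which has no library at 2 and 3 h. In every panel both libraries at 4 h lie above both at 0 h, and the replicate 1 value is the higher of the 4 h pair.

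The 4 h calls depended on single libraries. Calls over all genes moved as well, from 3089, where a 0 h library was left out. The moves are therefore not read as particular to the members. For the other left-out libraries the share over all genes is not reported here. Without either 0 h library no member was called (1363 and 1096 genes of the whole table remained called), without replicate 1 at 4 h 1 member was called, and without replicate 2 at 4 h 16 were called. Leaving out a 1 h library left 4 and 3. The Uqcrq call was lost in 2 of the 6 fits (adjusted p up to 0.0792), those of Atp5d and Ndufa12 in 3, that of Atp5b in 4, that of Cyc1 in 5 and that of Usmg5 in all 6 (0.0508 to 0.182). With the replicate number as a block, 18 members rose and 1 fell, against 58.7% of all genes called, 23.3% higher and 35.4% lower. The additional risers were Uqcr11 and Uqcrfs1 of complex III, Atp5a1, Atp5e, Atp5g2 and Atp5g3 of complex V, Cox4i1, Cox5a and Cox7b of complex IV, and Ndufa1, Ndufb6 and Ndufb10 of complex I. The member that fell was Ndufv3, an accessory subunit of complex I, which was 23.7 and 37.12 FPKM at 0 h and 14.49 and 18.66 FPKM at 4 h, a change of -0.81 (adjusted p = 0.00585 with the block and 0.15 without it).

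By complex, the median change in 4sU RNA at 4 h was 0.53 for the 9 genes of complex III, 0.36 for the 16 of complex V, 0.20 for the 11 tested of complex IV, 0.05 for the 34 of complex I and -0.01 for the 4 of complex II. Over the 74 members tested it was 0.12, and over all genes -0.16. The F1 part of ATP synthase, with 5 genes, had a median of 0.76 and 2 called genes. The 3 c-ring genes had a median of 0.41 with none called (2 higher with the block), and the other 8 membrane and stalk genes a median of -0.04 with 1 called. Differences between the complexes, or between the parts of complex V, were not tested. Core subunits of complex I, which carry its redox centres, gave -0.22 for Ndufs1 and -0.12 for Ndufv1, neither called. Sdha and Sdhb, the catalytic pair of complex II, gave -0.14 and 0.37, and Uqcrc1, a core protein of complex III, 0.32, none called. Of complex IV, Cox6a1 gave 0.34, Ndufa4 0.20 and Cox7a2l -0.05, none called.

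Cox5a, a subunit of complex IV, differed in level between the replicates: it was 57.8 and 32.64 FPKM at 0 h and 99.89 and 56.34 at 4 h (0.77, adjusted p = 0.224 without the block and 0.00218 with it). Its 0 and 4 h groups overlap, and within each replicate number the 4 h value is the higher. The members as a set did not share this gap at 0 h: 39 of 74 were higher in replicate 2, with a median log2 difference of 0.01. Cox4i1, the ubiquitous isoform of subunit IV, was 38.03 and 29.82 FPKM at 0 h and 58.43 and 41.54 at 4 h (0.54, adjusted p = 0.123 without the block and 0.0124 with it). Both 4 h libraries lay above both 0 h libraries for 25 members (33.8%), against 28.7% of all genes, and below for 11 (14.9%), against 42.3%.

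**Figure D3:**
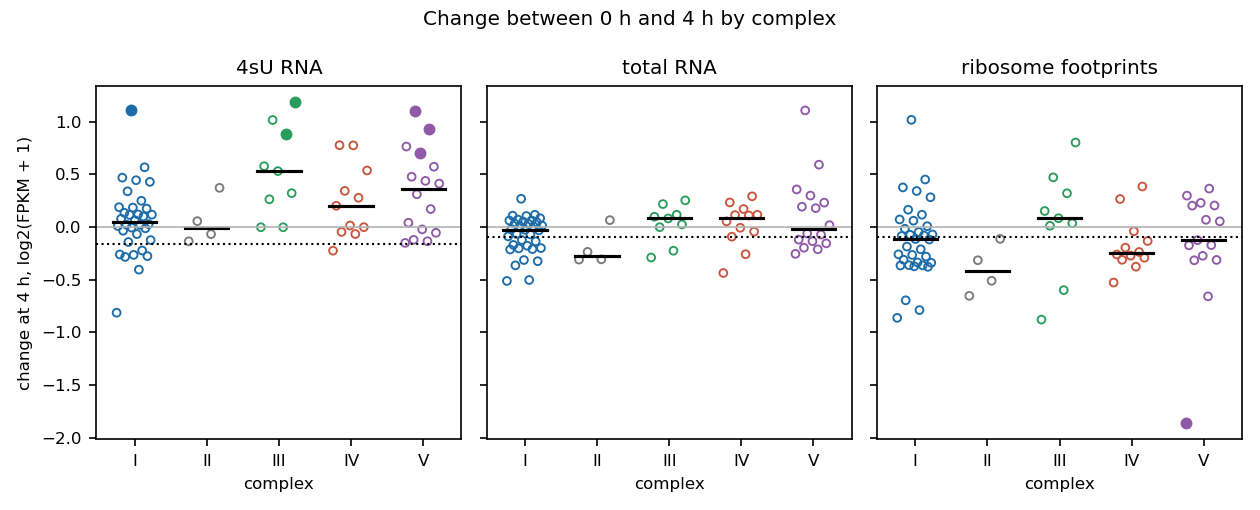
Change between 0 and 4 h in log2(FPKM + 1) for each tested subunit gene by complex, in 4sU RNA, total RNA and footprints; filled points passed the test, open points did not, black bars are medians of a complex and the dotted line is the median of all genes tested. Filled points are the 6 higher genes in 4sU RNA and Usmg5, lower, in footprints; total RNA has none.

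Earlier times gave few calls among the members. At 1 h limma called none of 74 in 4sU RNA (4 at an unadjusted p below 0.05), against 0.183% of all genes. At 2 h it called none (7 unadjusted), against 7.56%, 3.87% higher and 3.69% lower. Unadjusted counts over all 9278 genes were 1236 at 1 h and 2866 at 2 h. At 3 h Ndufa12 was called, with a change of 1.17 (adjusted p = 0.0481), against 20.1% of all genes, 9.41% higher and 10.7% lower. At 4 h against 1 h it was again the only one, with a change of 1.15 (adjusted p = 0.0249), against 26.7%, 11.9% higher and 14.7% lower. Its 3 h call was lost without either 0 h or either 1 h library (adjusted p = 0.0698 to 0.152), and its 4 h against 1 h call without either 1 h library or without replicate 1 at 4 h (0.0765 to 0.0985). The 2 and 3 h points rest on 1 library each, of replicate 1, which are assumed to vary like the other times. With the replicate block 1 member was lower at 1 h, Ndufs4 (-0.62, adjusted p = 0.0318), against 10.6% of all genes, 5.21% higher and 5.42% lower. At 2 h 4 were higher (Atp5d, Atp5g3, Atp5mpl and Usmg5) and Ndufv3 lower, against 31% of all genes, 13.3% higher and 17.7% lower. At 3 h 8 were higher and Ndufv3 lower, against 42.9%, 17.8% higher and 25.2% lower. At 4 h against 1 h 19 were higher and Ndufv3 lower, against 54.1%, 22% higher and 32.2% lower. Ndufs4, an accessory subunit of complex I, was 13.42 and 13.91 FPKM at 0 h, 8.63 and 8.45 at 1 h, 14.54 at 2 h, 13.21 at 3 h, and 13.07 and 11.53 at 4 h.

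In the short-label pair, 1 library at each time, no test was possible. Of 72 members with a mean of at least 5 FPKM, 43 were higher and 29 lower at 0.5 h than at 0 h, with a median log2 difference of 0.06 against -0.03 over 7155 genes. None differed by 2-fold or more, and 0.755% of all these genes were at least 2-fold higher and 0.196% at least 2-fold lower. Complex V had a median of 0.16, with 13 of 15 genes higher.

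In total RNA no member passed the test at any time without the replicate block. At 4 h limma called none of 75 (1 at an unadjusted p below 0.05), against 13.5% of all 9078 genes, 6.47% higher and 7.02% lower. At 2 h it called none (0 unadjusted, 0 with the replicate block), against 1.02%, 0.958% higher and 0.0661% lower, and with the block 8.07%, 5.33% higher and 2.74% lower. At 1 h it called none (10 unadjusted), against 0% of all genes. Unadjusted counts over all 9078 genes were 2911 at 4 h, 1062 at 2 h and 1197 at 1 h. The median change at 4 h was 0.00, against -0.10 over all genes. Of the 6 genes called in 4sU RNA, Atp5b was 212.11 and 237.4 FPKM at 0 h and 282.03 and 246.04 at 4 h, and Cyc1 was 55.08 and 42.55 at 0 h and 63.77 and 49.92 at 4 h. Atp5d was 53.48 and 41.3 at 0 h and 45.33 and 43.96 at 4 h. Atp5b values at 4 h lie above those at 0 h, and those of Cyc1 and Atp5d overlap. The 4 h group was above the 0 h group without overlap in 5 members (6.67%), against 25.3% of all genes, and below in 19 (25.3%), against 36.7%.

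With the replicate block 4 members were called in total RNA at 4 h, against 39.9% of all genes, 16.6% higher and 23.3% lower: Atp5g1 and Atp5g2 higher, and Ndufv3 and Ndufb11 lower. Atp5g2 was 39.09 and 5.11 FPKM at 0 h, 34.06 at 1 h, 37.41 at 2 h, and 36.29 and 29.41 at 4 h, so the low value is a single library, replicate 2 at 0 h. Ndufv3 was 37.32 and 54.37 FPKM at 0 h, and 27.16 and 36.02 at 4 h, lower within each replicate number. At 1 h the block gave 1 member higher and 10 lower, against 10.5% of all genes, 1.43% higher and 9.02% lower. In this 1 h library 8 of 72 members with a high enough level lay below 0.6 times the lowest of the other 5 libraries, against 6.83% of all genes: Atp5h, Atp5j, Atp5o, Cox8a, Ndufb8, Ndufv1, Uqcr10 and Uqcrq. Cox8a was 78.75 FPKM there and 152.97 to 216.7 FPKM in the others.

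In footprints Usmg5 fell, and without the replicate block no other member was called at any time. At 4 h it was the 1 of 74 called, against 25% of all 9312 genes, 12.1% higher and 12.9% lower, and at 2 h the 1 called, against 4.93%, 2.96% higher and 1.97% lower. Its footprint level was 7.34 and 7.73 FPKM at 0 h, 1.21 at 0.5 h, 3.46 and 2.56 at 1 h, 0 at 2 h, and 1.09 and 1.64 at 4 h. At 4 h the change was -1.86 ± 0.23 (SE, adjusted p = 0.00647), and both 4 h values lie below both 0 h values. These levels stand for few reads, 26 and 12 at 0 h and 5 and 4 at 4 h by the step size, and at 2 h, where the adjusted p was 0.0187, it is listed at 0. The 2 h call was lost without either library at 0 h or at 4 h (adjusted p = 0.0557 to 0.0784), and the 4 h call stayed under all 6 left-out libraries, with adjusted p from 0.0128 to 0.0481. In total RNA Usmg5 was 84.67 and 114.36 FPKM at 0 h and 136.76 and 116.49 FPKM at 4 h.

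At 0.5 and 1 h limma called no footprint change (2 and 1 members at an unadjusted p below 0.05, and 0 at both times with the replicate block), against 0% and 0.14% of all genes, or 0.0322% and 1.97% with the block. At 4 h against 1 h it called none (3 unadjusted), against 14.1%, 7.65% higher and 6.42% lower. Unadjusted counts over all 9312 genes were 743 at 0.5 h, 991 at 1 h and 3017 at 4 h against 1 h. The median change of the 74 members at 4 h was -0.13, against -0.10 over all genes. With the replicate block 7 members were called at 4 h, against 48% of all genes, 21.3% higher and 26.7% lower. Both 4 h libraries lay above both 0 h libraries for 5 members (6.76%), against 29% of all genes, and below for 17 (23%), against 36.8%. Uqcrfs1, the Rieske iron-sulfur subunit of complex III, was higher at 151.26 and 237.32 FPKM at 0 h and 291.47 and 375.77 at 4 h (0.8, adjusted p = 0.00801 with the block and 0.108 without). The 6 lower were Usmg5, Ndufa7, Ndufb11, Ndufv3, and Sdhc and Sdhd, the subunits that anchor complex II in the membrane. Sdhd was 300.63 and 388.07 FPKM at 0 h and 186.78 and 251.38 at 4 h (-0.65, adjusted p = 0.0143 with the block and 0.137 without). Ndufv3 was 141.54 and 191.91 FPKM at 0 h and 78.44 and 114.93 at 4 h. Its FPKM at 4 h was below that at 0 h within both replicate numbers in all 3 kinds of library. The same held for Atp5h, Atp5j, Cox8a, Ndufa9, Ndufb11 and Sdha. Of all genes 50.9% in 4sU RNA, 45.9% in total RNA and 45.7% in footprints were lower in both replicate numbers. Ndufv3 was called only with the block. At 4 h against 1 h the block gave 6 lower members, against 36.7% of all genes, 17.5% higher and 19.3% lower. At 2 h against 0 h it gave Cox7a2l higher and Usmg5 and Sdhd lower, against 19.4%, 9.53% higher and 9.87% lower.

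The size of the members' change differed between the replicate numbers. In 4sU RNA the median change from 0 to 4 h over the 75 members was 0.33 in replicate 1 and -0.10 in replicate 2, while over all genes it was -0.19 and -0.12. In total RNA the members' medians were 0.10 and -0.16, and in footprints -0.01 and -0.26. In 4sU RNA 30 members were higher at 4 h in both replicates and 12 lower in both, against 34.4% and 50.9% of all genes. With the 4 h library of replicate 1 left out the members' median lay 0.02 above that of all genes, and with that of replicate 2 left out 0.56 above. Between the 2 libraries of 4sU RNA at 4 h, 6 of 74 members were higher in replicate 2, with a median difference of -0.43 on the log2 scale against 0.08 over all genes. In footprints at 0 h, 67 of 75 members were higher in replicate 2, with a median difference of 0.47 against -0.02 over all genes. The CD8 marker list and Ifng, given above, also differ between the replicate numbers, and their part in this was not tested.

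**Figure D4:**
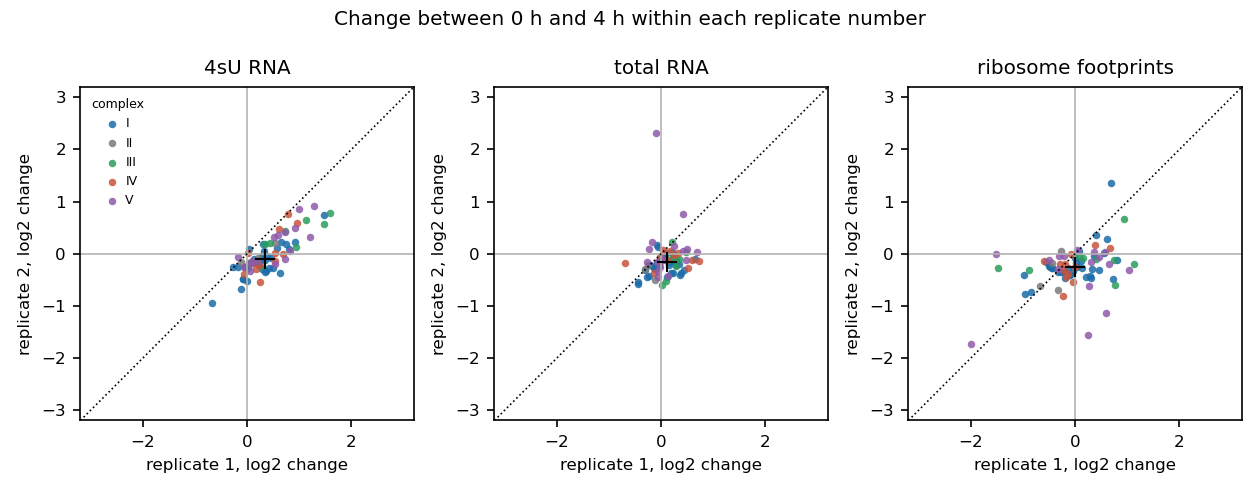
Change from 0 to 4 h in log2(FPKM + 1) within replicate 1 (x axis) and replicate 2 (y axis) for each of the 75 genes, coloured by complex, in 4sU RNA, total RNA and footprints; the dotted line marks equal change and the black cross the 2 medians. In 4sU RNA the cross is at 0.33 and -0.10, so most points lie below the dotted line.

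Set against total RNA at 0 h, footprints of the subunit genes were mostly high. With both kinds on 1 median gene (offset 1.29 on the log2 scale), 43 of 74 members were called higher in footprints per total RNA and 3 lower. This stands against 49.4% of all 9021 genes called, 24.7% higher and 24.8% lower. Called or not, 64 members lay above the median gene and 10 below. The members' median was 0.97 above the median gene. Other lists varied, and differences were not tested. Of 74 mitochondrial ribosomal proteins 44 were called higher and 2 lower, with a median of 0.97. Assembly factors had 16 of 28 higher and none lower for complexes III, IV and V (median 1.00). For complexes I and II they had 8 higher and 1 lower of 17 (0.84). Medians were smaller for the tricarboxylic acid cycle (0.14, 7 higher and 3 lower of 17). The same held for electron carriers and ubiquinone synthesis (0.31, 2 and 2 of 13) and regulators of mitochondrial gene expression (0.09, 6 and 2 of 15). The T cell identity markers, not a mitochondrial list, had 0.84, with 5 of 9 higher. Rescaling total RNA to coding length, an alternative chosen after seeing the data, gave 41 members called higher and 5 lower. The share over all genes under that rescaling is not reported here, so this count is not read as particular to the members. The highest were Ndufb2, an accessory subunit of the membrane arm of complex I (4.86 ± 0.27, adjusted p = 2.54e-05), Atp5e (4.06 ± 0.33, adjusted p = 9.21e-05), Cox6c of complex IV (3.92 ± 0.34, adjusted p = 0.000109) and Uqcrq (3.68 ± 0.27, adjusted p = 6.2e-05). Ndufb2 was 2.74 and 2.29 FPKM in total RNA and 194.01 and 316.94 FPKM in footprints. Of its coding windows 49.1% also occur in other genes. Footprints per total RNA rose with summed exon length over coding length (Spearman 0.36 over 74 members, 0.39 over all genes).

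The 3 members called lower were Usmg5 (-4.83 ± 0.22, adjusted p = 1.27e-05), Cox7a2l, which takes part in joining respiratory complexes into supercomplexes (-3.11 ± 0.32, adjusted p = 0.000183), and Atp5g1 (-1.38 ± 0.48, adjusted p = 0.0418). Usmg5 was 84.67 and 114.36 FPKM in total RNA but 7.34 and 7.73 in footprints, and Cox7a2l was 177.15 and 139.36 FPKM against 34.46 and 55.47. Atp5g1 is near the floor in both, at 1.15 and 0.83 FPKM in total RNA and 0 and 2.47 in footprints. Most of its -1.38 is the subtracted offset of 1.29, so its call does not show fewer footprints. It passed the level filter only through the single 0.5 h footprint library, at 12.73 FPKM (98 reads). The fourth member with few footprints, Atp5g2, was below the level filter for footprints at 2.13 and 0 FPKM.

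Short reads cannot always be told apart from copies of a gene, so each 28-base window of every member's coding sequence was looked for in the transcripts of other annotated genes. All windows of Atp5g1 and Atp5g2, 99.3% of those of Usmg5 and 63.8% of those of Cox7a2l occur elsewhere, mostly in processed pseudogenes, while none of Atp5g3 does. Among the 13 tested members with at least 50% of windows shared, 3 were called higher and 3 lower in footprints per total RNA. Atp5g1, near the floor, is among those 3 lower. Among the 37 with some but less than 50% shared, 25 were called higher and 0 lower. Among the 24 with none shared, 15 were called higher and 0 lower. The median was 0.41 with at least 50% shared, 1.29 with less than 50% and 0.95 with none, so it did not fall steadily with sharing. Cox6c, with 68.1% shared, was among the highest. The part of shared sequence in the low footprint values was not tested, and how reads with several matches were treated is not given in the sources used here.

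**Figure D5:**
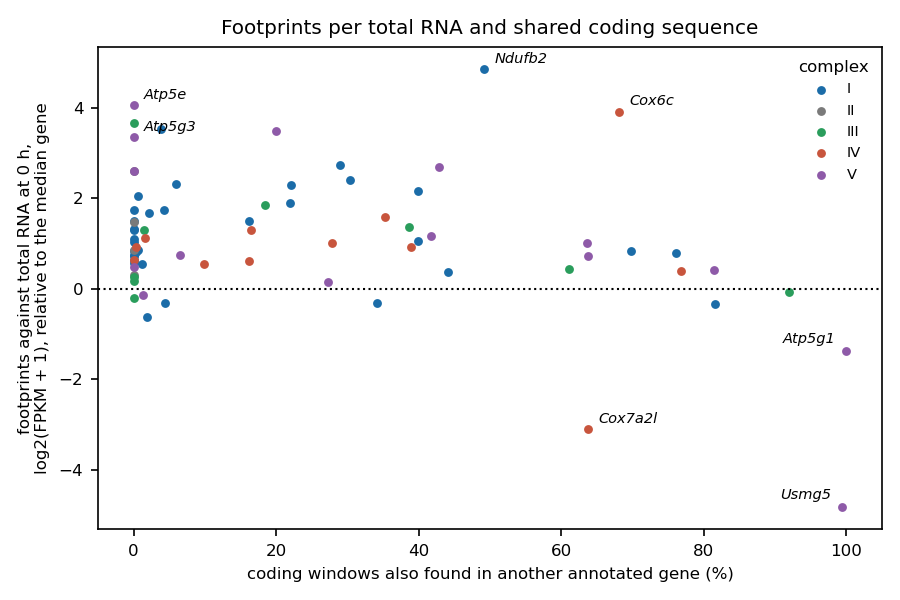
Footprints against total RNA at 0 h in log2(FPKM + 1), relative to the median gene, plotted against the percent of 28-base coding windows found in another annotated gene, for 74 subunit genes coloured by complex. The 3 lowest genes, Usmg5, Cox7a2l and Atp5g1, have 99.3%, 63.8% and 100% of windows shared, and Cox6c with 68.1% shared is high. Atp5g1 is near the floor in both kinds of library.

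The coding sequence of Usmg5 is shown because its footprints were the lowest against its total RNA; the single capital marks the only base outside windows shared with another gene. It is the 177-base GENCODE M21 coding sequence on the minus strand of chromosome 19 (GRCm38).
Usmg5: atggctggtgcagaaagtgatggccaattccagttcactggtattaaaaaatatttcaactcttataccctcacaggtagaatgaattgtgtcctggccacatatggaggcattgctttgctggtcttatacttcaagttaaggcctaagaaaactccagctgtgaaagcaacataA

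The 3 c-ring genes are known to encode the same mature protein, and their sequences are shown because Atp5g3 had abundant footprints while Atp5g1 and Atp5g2 had few. Printed are the last 120 coding bases of each with the stop codon, from GENCODE M21 (GRCm38), all on the minus strand (Atp5g3 on chromosome 2, 73908447 to 73911326; Atp5g2 on chromosome 15, 102662864 to 102672352; Atp5g1 on chromosome 11, 96068852 to 96075670). Capitals mark bases that differ from Atp5g3, 28 in Atp5g2 and 22 in Atp5g1. At 0 h Atp5g3 had 1142.09 and 1750.16 footprint FPKM, against at most 2.47 for Atp5g1 and Atp5g2. All windows of those 2 genes occur in other annotated genes and none of Atp5g3 does.
Atp5g3: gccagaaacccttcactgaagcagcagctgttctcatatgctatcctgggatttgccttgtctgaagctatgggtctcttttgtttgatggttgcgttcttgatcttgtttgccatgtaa
Atp5g2: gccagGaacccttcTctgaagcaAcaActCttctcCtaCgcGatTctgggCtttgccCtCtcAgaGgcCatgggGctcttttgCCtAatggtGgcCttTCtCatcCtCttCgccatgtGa
Atp5g1: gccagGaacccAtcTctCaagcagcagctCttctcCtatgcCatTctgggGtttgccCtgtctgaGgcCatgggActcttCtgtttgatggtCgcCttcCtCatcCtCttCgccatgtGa

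The change at 4 h was also compared between kinds of library. No member's footprint change was called different from its total RNA change (0 of 74, 1 at an unadjusted p below 0.05), against 0% of 9021 genes. With the block none was, against 0.0333% of all genes. The unadjusted count over all 9021 genes was 241. Usmg5 had the lowest difference among the members, -2.22. A test that calls 0% of all genes cannot show that the changes are equal. No member's 4sU change was called different from its total RNA change without the block (0 of 74, 3 unadjusted), against 0% of 9033 genes. The unadjusted count over all 9033 genes was 526. With the block 2 members were called, against 1.97% of all genes, 1.69% higher and 0.277% lower: Uqcrq (difference 1.48 ± 0.32, SE, adjusted p = 0.0398) and Atp5d (1.17 ± 0.24, adjusted p = 0.0318). Uqcrq in total RNA was 14.53 and 21.19 FPKM at 0 h, 6.68 at 1 h, 14.86 at 2 h, and 14.73 and 13.65 at 4 h.

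Lists of genes that build or feed the complexes, or regulate them, are read against the 14.4% of all genes called higher and 18.9% called lower in 4sU RNA at 4 h. Of 17 tested assembly factors of complexes I and II, 3 rose and 1 fell in the 4sU comparison of 4 h with 0 h, led by Ndufaf4 (2.23, adjusted p = 0.00373), with Tmem126b lower (-1.05, adjusted p = 0.0141). Of 28 assembly factors of complexes III, IV and V, 5 were higher and 2 lower, led by the copper chaperones of cytochrome c oxidase Sco2 (1.74) and Sco1 (1.49). Ndufaf4 rose also in total RNA (2.1, adjusted p = 0.0141) and footprints (2.39, adjusted p = 0.00452). Of 17 genes of the tricarboxylic acid cycle 5 were higher and 1 lower in 4sU RNA, led by Idh3a (0.97) and Mdh2 (0.81), and of 14 genes for electron carriers and ubiquinone synthesis 2 were higher, Coq4 (0.84) and Coq5 (0.79). Among 16 genes listed as regulators of mitochondrial gene expression 4 rose, led by Myc (3.84, adjusted p = 0.00164) and Pprc1, a coactivator of the PGC-1 family (2.58, adjusted p = 0.00286). These counts are small, and whether they depart from the shares over all genes was not tested.

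The medians in 4sU RNA at 4 h were 0.31 and 0.16 for the assembly factor lists, 0.40 for the tricarboxylic acid cycle, 0.17 for the carriers and 0.08 for the regulators, against 0.12 for the subunits and -0.16 for all genes. The 74 mitochondrial ribosomal proteins had a median of 0.40, with 17 higher and 2 lower, against the same 14.4% and 18.9% of all genes, and the 51 cytosolic ribosomal proteins 1.51, with 49 higher. Of 13 glycolysis genes tested 1 was called, Hk2 (3.37, adjusted p = 0.00424), with a list median of 0.74. In footprints at 4 h 12 mitochondrial ribosomal proteins were higher and 2 lower of 74, and 25 of 50 cytosolic ribosomal proteins were higher, against 12.1% of all genes higher and 12.9% lower. In total RNA 6 of 74 and 3 of 51 were higher and none lower, against 6.47% and 7.02%.

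With the replicate block the counts in 4sU RNA at 4 h grew, against 23.3% of all genes higher and 35.4% lower. Mitochondrial ribosomal proteins had 35 higher and 3 lower of 74, and cytosolic ribosomal proteins 50 higher of 51. The tricarboxylic acid cycle had 9 higher and 4 lower of 17, glycolysis 7 higher and 3 lower of 13, and the carriers 6 higher and 1 lower of 14. The assembly factors had 4 higher and 2 lower of 17 for complexes I and II and 7 higher and 2 lower of 28 for complexes III, IV and V, and the regulators 6 higher and 2 lower of 16. Differences between these lists and the subunits were not tested.

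Promoter letters are a property that the symbol rule did not use. RefSeq promoter windows (GRCm38.p6, 250 bases before to 50 after the start) were matched for 62 of the 75 genes, 67 windows in all, and 13 genes, Cyc1 and Uqcrq among them, were not matched. The motif of NRF1, an activator of respiratory chain genes, was searched as GCGC, any base, then TGCGC, and was present on either strand in 25.4% of the members' windows, against 11.1% of those of all table genes and 4.6% of all 32851 windows. The YY1 motif AANATGGCG was in 14.9% against 5.86% and 2.38%. The ETS motif CCGGAAG, bound by GABPA, was in 23.9% against 20.2% and 8.86%, the E-box CACGTG, a Myc motif, in 8.96% against 10.4% and 7.15%, and the SP1 motif GGGCGG in 38.8% against 64.4% and 35.7%. Overlaps between motifs were allowed, and a match is no evidence of binding. In 4sU RNA at 4 h the 16 members with the NRF1 motif had a median change of 0.07 and the 45 without it 0.12.

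These 60-base stretches before the start of 3 members with the NRF1 motif (in capitals, here on the strand opposite to the gene), each gene on the minus strand and overlapping no annotated exon, show its setting (GRCm38.p6). They lie at chr5:115349041-115349100 for Cox6a1, at chr11:115420026-115420085 for Atp5h and at chr4:123718250-123718309 for Ndufs5. The motif ends 108, 132 and 89 bases before the start.
Cox6a1: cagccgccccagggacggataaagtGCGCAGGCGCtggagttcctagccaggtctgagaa
Atp5h: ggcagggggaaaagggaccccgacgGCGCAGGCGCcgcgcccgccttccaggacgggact
Ndufs5: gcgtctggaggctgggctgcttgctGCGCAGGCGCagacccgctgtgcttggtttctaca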

How the data were processed

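The authors deposited FPKM values per gene, which the submitters' processing notes tie to featureCounts, to Subread 1.4.6-p3 and to GRCm38. The selection of the 9420 genes, like the aligner, annotation and handling of reads with several matches, is not given in the sources used here. Of the Ensembl identifiers 9412 matched a symbol in a gene name table and 8 did not; coordinates, lengths and coding sequences are from GENCODE M21 (GRCm38). Changes were tested with limma 3.58.1 (R 4.3.3) on log2(FPKM + 1), all times of a kind of library in 1 fit, genes with a mean FPKM of at least 1, and Benjamini-Hochberg adjustment over all genes at 0.05. This understates changes of low genes. Kinds were compared in 1 model, and the 0 h comparison of footprints with total RNA was centred on the median gene. Cox7a1 did not pass the filter in 4sU RNA, nor Atp5g2 in footprints, so 74 members were tested in each.

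Same-numbered libraries deviated together in 28 of 28 pairs (correlation of their deviations from the group mean 0.306 to 0.79), so the replicate number was also fitted as a block. For some comparisons the fit without the block was run on simulated data in which libraries varied independently, with the outcome not reported here. That simulation covers neither the shared deviations nor the fits with the block. Named members were an 18-gene core set, the 4 called members with the largest change each way in each comparison, and the 3 highest and lowest at 0 h; of each list the 2 called genes with the largest change. The values of 1 core gene are not reported here. Members called only with the block (such as Ndufv3, Ndufs4 and Sdhd) were named after their values were seen. The members and lists were chosen with earlier results of these data known.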

Additional observations from a re-analysis of the deposited data

How the results depend on the processing

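The count of members called was recomputed under a pseudocount of 0.1, no filter, median-of-ratios scaling, a replicate block and each library left out. In 4sU RNA at 3 h, 1 member became 2 with the pseudocount and 3 with median-of-ratios scaling, and at 4 h against 1 h, 1 became 3 with that scaling. The replicate block gave, in 4sU RNA, 1 at 1 h, 5 at 2 h, 9 at 3 h, 19 at 4 h and 20 at 4 h against 1 h; in total RNA 11 at 1 h and 4 at 4 h; in footprints 3 at 2 h, 7 at 4 h and 6 at 4 h against 1 h; and 2 for 4sU against total RNA. Leaving out 1 library gave, in 4sU RNA, 0 to 1 at 2 h, 0 to 8 at 3 h, 0 to 16 at 4 h and 0 to 14 at 4 h against 1 h; in total RNA 0 to 1 at 2 h and at 4 h; in footprints 0 to 1 at 2 h and 1 to 2 at 4 h; and 35 to 49 for footprints against total RNA at 0 h, where the other settings gave 41 to 53. In 4sU RNA at 4 h median-of-ratios scaling gave 8. All other counts under the pseudocount, without the filter and under that scaling equalled those reported, and for the comparisons not named here leaving out 1 library gave 0. The block changed no other count except that of footprints against total RNA at 0 h, which became 53. The cause of the moves was not tested. Shares over all genes in the fits with a library left out are not reported here, so those ranges are not read as particular to the members. No called direction reversed among the named members. With 2 libraries a group at most, 1 library carries much of a call, and low footprint members rest on few reads.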
